A study of Mus musculus with 2 samples.

Results

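The transcripts described here are those of 10 genes of the leukemia inhibitory factor (LIF) and gp130 cytokine pathway, as read in stroma isolated from the uterus of C57BL/6 mice at day 4 of pregnancy. The genes are the ligands Lif, Il6, Il11 and Osm, the receptor chains Lifr, Il6st, Il6ra and Osmr, the transcription factor Stat3 and the feedback inhibitor Socs3. They were chosen by pathway role, with earlier results of these arrays known. Every probe set whose single gene symbol was one of the 10 was taken, which gave 24 of 34945 probe sets with 1 symbol and 10 of 18193 genes. The groups were floxed Msx1Msx2 control mice and Msx1Msx2-null mice, in which both homeobox genes were removed from the uterus with PRcre, Cre recombinase driven by the progesterone receptor locus. That Cre acts in every uterine cell that expresses the receptor, epithelium included, so the deletion is not limited to stroma. Both groups were mated to fertile males, and the stroma was taken after the epithelial clumps had been discarded. For each genotype 5 mice are stated in the design and treatment texts but 4 in the extraction text, and the RNA of a genotype was pooled onto 1 Affymetrix array.

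With 1 array per genotype there is no replicate error and no test, and a difference may belong to the genotype, to the pooled mice or to the hybridization. Values are MAS5 signals, linear intensities with the same trimmed mean in each array. A signal under the median of all non-control probe sets of its array, 31.0 for control and 30.1 for null, was treated as too dim to read and is called under the floor. The noise of a single probe set was taken from genes with 2 readable probe sets. The SD of a log2 ratio was 0.27 over 4690 such genes, and it went down from 0.32 to 0.27 and 0.21 as the signal went from its lowest tertile to its highest. As a check of the labels, the null array held at least 52.6-fold less Msx1 on the brightest probe set and at least 2.12-fold less Msx2. Whether those probe sets lie in the deleted segments is not given in the sources used here. The ratio of 3' to 5' signal, a measure of RNA degradation, was 0.967 and 1.28 for Gapdh and 1.80 and 2.33 for Actb, control value first.

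Ligands of this family bind a receptor chain of their own and then recruit gp130, the shared signalling chain encoded by Il6st. Janus kinases bound to the receptors phosphorylate Stat3, which enters the nucleus and induces, among others, Socs3, which in turn blocks the receptor complex. In the mouse uterus LIF is made by the gland epithelium on the day of implantation under the control of estrogen, and mothers without Lif cannot implant their embryos. Il11 acts through gp130 in the decidua, which stromal cells form after attachment.

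Before the signals, the upstream sequences of 3 genes are shown: the ligands Lif and Il6 and the shared chain Il6st, whose ratios were all negative. Their windows lie outside the gene spans that RefSeq gives. The same holds for the window of Il6ra, whose ratio was also negative. That window matched none of the motifs searched and is not shown. The windows are the 250 bases before the start in the RefSeq promoter table of build GRCm38.p6, all on the plus strand, and capitals mark matches to the motifs named next. Lif is at chr11:4257318-4257567, Il6 at chr5:30012864-30013113 and Il6st at chr13:112463820-112464069.
Lif: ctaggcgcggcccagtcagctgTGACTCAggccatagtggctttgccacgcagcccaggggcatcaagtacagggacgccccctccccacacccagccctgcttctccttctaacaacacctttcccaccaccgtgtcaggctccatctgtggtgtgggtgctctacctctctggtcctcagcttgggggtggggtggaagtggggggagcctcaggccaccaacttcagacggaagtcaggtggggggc
Il6: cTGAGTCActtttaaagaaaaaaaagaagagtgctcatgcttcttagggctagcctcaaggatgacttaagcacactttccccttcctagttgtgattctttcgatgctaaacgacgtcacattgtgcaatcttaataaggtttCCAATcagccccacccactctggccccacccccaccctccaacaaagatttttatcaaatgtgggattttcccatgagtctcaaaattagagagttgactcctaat
Il6st: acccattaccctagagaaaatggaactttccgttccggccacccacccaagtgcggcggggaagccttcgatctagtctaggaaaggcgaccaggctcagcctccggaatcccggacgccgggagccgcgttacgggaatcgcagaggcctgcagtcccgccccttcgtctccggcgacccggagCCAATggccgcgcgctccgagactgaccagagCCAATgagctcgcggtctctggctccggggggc

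The motifs were searched on both strands in the 250 bases of 32851 windows, of which 11 belonged to 9 members, all but Osm. The AP-1 element TGANTCA was in 6.75% of all windows and in those of Lif and Il6 and 1 of Il11. The CCAAT element was in 33.8% of all windows, among them those of Il6 and Il6st, the latter with 2 matches, and windows of Il11, Lifr and Stat3. TATAAA, in 12.4% of windows, matched in none of the 11. The Stat element TTCNNNGAA, in 7.02% of windows, was found for Socs3 alone among the members. The window that holds this match lies inside the gene span that RefSeq gives for Socs3, unlike the windows printed above. That match is shown in capitals with 10 bases on each side, read on the minus strand at chr11:117969502-117969530.
Socs3: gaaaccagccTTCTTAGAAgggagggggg
A match describes these letters and is not a measured binding site, and the matches shown did not overlap each other.

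Among the 10 members the readable probe sets were lower in the null array almost throughout. Of the 24 member probe sets, 16 were above the floor in both arrays, 1 in the control array only and 7 in neither. Among the 16, the log2 ratio of null over control was negative in 15, against 50.7% of 18700 such probe sets on the whole array, and 2 were at least 2-fold lower, against 1.60%, while 0 were at least 2-fold higher, against 1.10%. At the level of genes, represented by their brightest probe set, 9 of 10 members could be read and 8 had negative ratios, where 47.7% of all 11833 readable genes did. The median log2 ratio of the 9 was -0.54 and that of all readable genes 0.02. Lif was the 1 member at least 2-fold lower, where 1.80% of all readable genes were, and 0 members were at least 2-fold higher, against 1.59%. At 1.5-fold, a threshold chosen after the values were seen, Lif, Osmr, Il6 and Stat3 were lower, which is 4 of 9 against 6.92% of all readable genes, and 0 were higher, against 6.79%. Which genes pass 1.5-fold depended on the setting: by the median over probe sets Stat3 had -0.38, short of it, while Socs3 with -0.70 and Il6st with -0.66 passed, and Il6 had -0.56, short of it, with 16 added to every signal. Probe sets of 1 gene read the same RNA, so they are not independent of each other. The members were chosen with earlier results of these arrays known, so these shares are no independent evidence of a lower pathway.

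**Figure D1:**
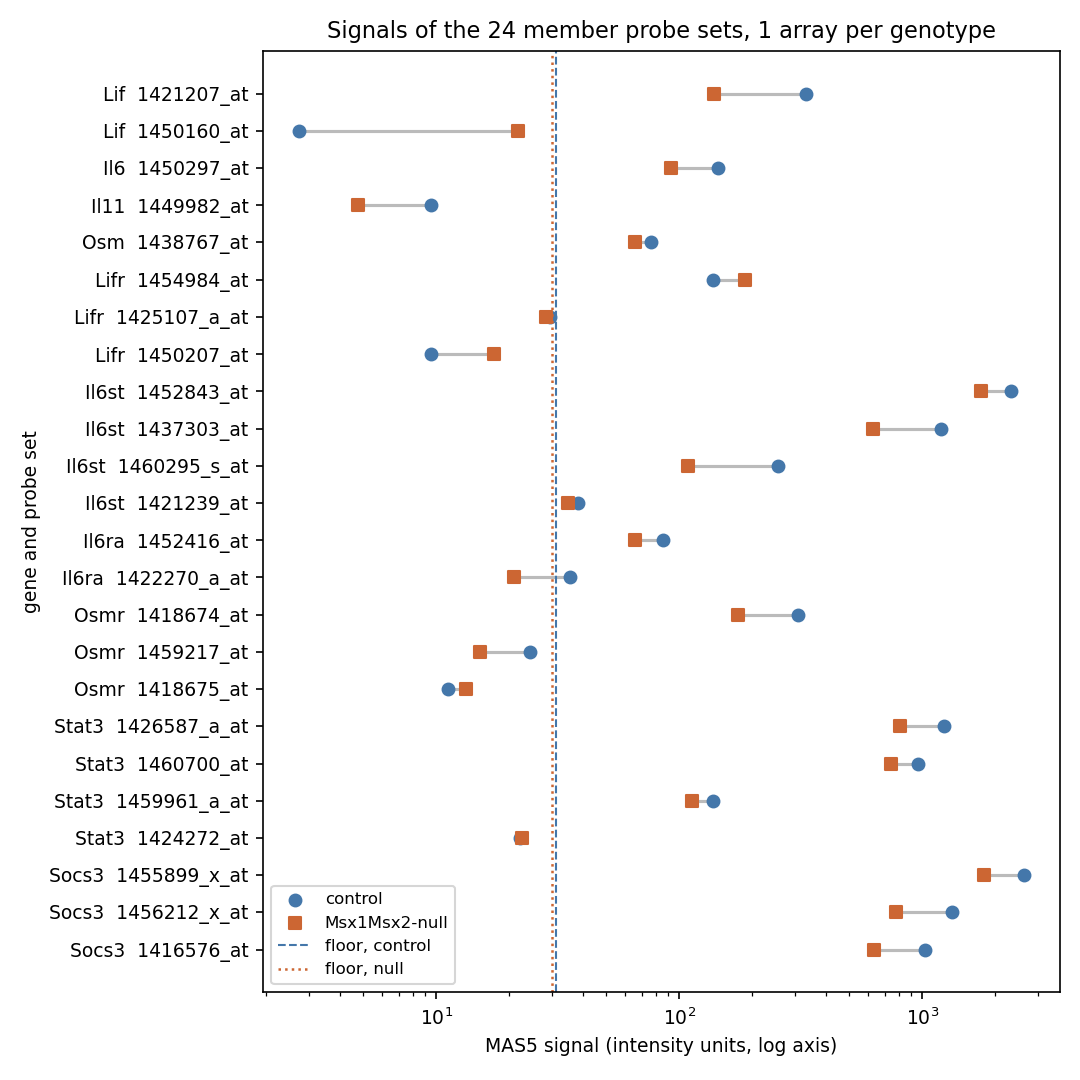
Signal of each member probe set (rows) in the control array (blue circle) and the null array (orange square), on a log axis in intensity units, with 1 array per genotype and the floor of each array as a vertical line. Among the 16 probe sets to the right of both floors in both arrays, the null signal lies left of the control signal in 15, and Lifr is the exception.

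Lif, the ligand that implantation requires, had the lowest ratio of the members. Its readable probe set, 1421207_at, went from a control signal of 332 to a null signal of 139, a log2 ratio of -1.25. The ratio was rank 89 from the lowest of 11137 genes readable in both arrays. In the same decile of mean signal, 0.909% of 1870 probe sets had a ratio at or below it. The other Lif probe set, 1450160_at, had signals of 2.73 and 21.8, neither above the floor, and went the opposite way, so the lower level of Lif rests on 1 probe set. With 2 arrays a pattern is a single ratio, and the 3 genes whose ratio lay nearest were Tns3 (-1.25), the mast cell carboxypeptidase gene Cpa3 (-1.27) and Gngt2 (-1.24).

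Markers of the gland epithelium, the known source of LIF, differed in the same direction and by more. All 7 fixed gland markers were at least 2-fold lower, where 1.80% of all readable genes were. They summed to a signal of 8543 for control and 479 for null cells. The list's median log2 ratio was -4.05, or -2.75 once the floor was moved to the 65th percentile. Foxa2, the transcription factor of gland cells, had 397 and 87.4, a log2 ratio of -2.18, and Cxcl15, a gland chemokine, had 997 and 235, a ratio of -2.08. Spink1, a secreted protease inhibitor, had the lowest ratio of the list at -5.77, and Wfdc3 had -4.05. The lowest null signals were those of Prss28 at 1.46, Ttr at 13.8 and Prss29 at 14.3, all under the floor. The 4 readable luminal epithelium markers were all at least 2-fold higher (Sprr2f, Ltf, Calb1 and Lpar3), where 1.59% of all readable genes were. Their median log2 ratio was 2.50, and the summed signal over 5 markers was 1712 and 10451. The 11 general epithelium markers had 9 negative and 2 positive ratios, Krt18 being past 2-fold lower and Krt19 past 2-fold higher, with a median of -0.13 and a summed signal of 11045 and 9011. All 12 stromal markers were above the floor in both arrays, as were all 11 of general epithelium, so the labelled cell type was present but not alone. The stromal markers had a median of 0.10 and a summed signal of 59500 and 61816. In RNA of a cell mixture, fewer cells of a type and less transcript per cell cannot be told apart, and the part of the gland cells in the Lif ratio was not tested.

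The other ligands were read on 1 probe set each. Il6, the inflammatory cytokine that signals through Il6ra and gp130, went from 145 in control to 92.9 in null cells, 1.56-fold lower. Osm, oncostatin M, made mainly by myeloid cells, had 76.2 and 65.8, a log2 ratio of -0.21 that lies within the probe set noise of 0.27. Il11, the decidual cytokine, had signals of 9.48 and 4.76, neither above the floor, so its ratio was not read. None of the 4 ligands was higher in the null array on a readable probe set.

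The shared chain Il6st was lower on each of its 4 readable probe sets, by very different amounts. Probe set 1452843_at went from 2309 in control to 1740 in null cells, a log2 ratio of -0.41. Probe set 1437303_at had 1189 and 629, a ratio of -0.92. Probe set 1460295_s_at, of a kind that reads more than 1 transcript, had 255 and 109, a ratio of -1.23 and past 2-fold. The dim probe set 1421239_at had 38.4 and 34.7, a ratio of -0.15, close to the floor. The direction was therefore shared, while the size spanned 1.08 on the log2 scale from the lowest of the 4 to the highest, the dim probe set. Probe noise gives an SD of 0.39 for a difference between 2 probe sets. A range over 4 is larger than such a difference by construction, so the 2 cannot be compared directly. Whether these probe sets read different transcripts of the gene was not tested.

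The ligand-binding chains differed from each other. Osmr, the oncostatin M receptor chain, went from 308 in control to 175 in null cells on 1418674_at, 1.76-fold lower, and its other 2 probe sets were under the floor in both arrays. Il6ra, the interleukin 6 receptor, had 85.4 and 65.9 on 1452416_at, a log2 ratio of -0.37, or -0.08 with a floor at the 65th percentile. Its second probe set, 1422270_a_at, had 35.5 and, under the floor, 20.9, which makes it at least 1.18-fold lower. Lifr, the chain that pairs with gp130 to bind LIF, was the 1 member with a positive ratio. It went from 138 in control to 187 in null cells on 1454984_at, 1.36-fold higher, a log2 ratio of 0.44. Its other 2 probe sets were under the floor, at 29.3 and 28.3 and at 9.48 and 17.2. Lif and its receptor chain thus had ratios of opposite sign, each on a single readable probe set.

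Stat3 and Socs3, the transducer of the pathway and its feedback inhibitor, were lower on every readable probe set. Stat3 went from 1230 in control to 808 in null cells on 1426587_a_at, 1.52-fold lower. On 1460700_at it had 965 and 742, a log2 ratio of -0.38, and on 1459961_a_at 137 and 113, a ratio of -0.28. Its 4th probe set, 1424272_at, was under the floor at 22.0 and 22.5. Socs3 had 2610 and 1792 on 1455899_x_at, 1.46-fold lower, 1325 and 776 on 1456212_x_at, 1.71-fold lower, and 1027 and 632 on 1416576_at, 1.62-fold lower. The 3 Socs3 ratios spanned 0.23 and the 3 Stat3 ratios 0.32. Both were less than the SD of 0.39, which is for a difference between 2 probe sets and not for a range over 3. The first 2 Socs3 probe sets are of a kind that can also bind related sequences, and the third, which is not, gave a ratio between theirs.

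Ordered from the lowest ratio, the members ran Lif, Osmr, Il6, Stat3, Socs3, Il6st, Il6ra, Osm and Lifr. Of the 8 steps between neighbours, 2 were larger than the SD of 0.39 for a difference between 2 probe sets. These were the step of 0.44 from Lif to Osmr and that of 0.65 from Osm to Lifr. From Osmr to Osm no single step was larger than this SD. Neighbours in a sorted list lie close by construction, and each gene stands here by its brightest probe set alone. The Il6st probe set 1460295_s_at, at -1.23, lay close to Lif. The steps therefore cannot show that a member is set apart.

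**Figure D2:**
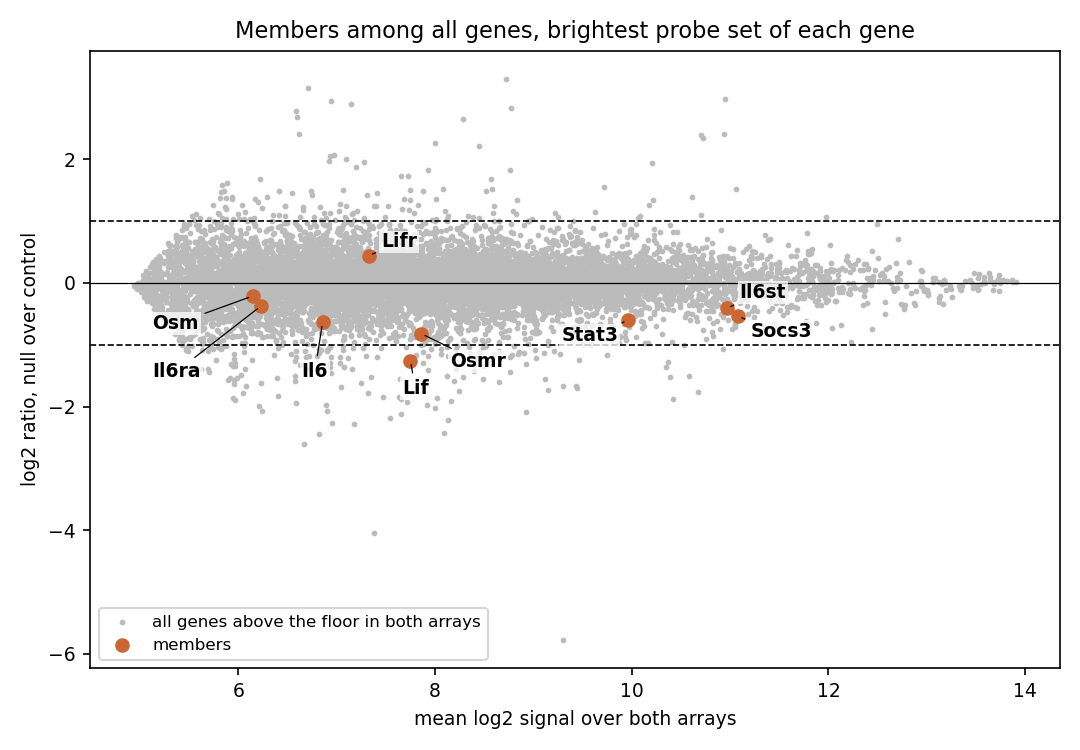
Log2 ratio of null over control against mean log2 signal over both arrays, for all 11137 genes above the floor in both (grey) and the 9 readable members (orange), each gene by its brightest probe set, with dashed lines at 2-fold. Lif lies below the lower dashed line at -1.25, 7 other members lie between it and 0, and Lifr lies above 0 at 0.44.

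Myeloid markers and the genes that tissue digestion induces were lower in the null array too. Myeloid cells are a known source of Il6 and Osm, and tissue stress is known to induce Il6 and Socs3. Of all readable genes, 47.7% had negative ratios and 1.80% were at least 2-fold lower. All 11 macrophage markers had negative ratios, 2 of them past 2-fold (Fcgr3 and Mrc1). Their median was -0.50 and their summed signal 7421 for control and 5083 for null cells. The 3 readable neutrophil markers, S100a8, S100a9 and Csf3r, were negative with a median of -0.54, or -0.18 with a floor at the 65th percentile, Cxcr2 was under the floor, and the summed signal of 4 markers was 242 and 169. All 8 endothelial markers were negative, with a median of -0.55 and a summed signal of 3631 and 2433. The 6 readable natural killer cell markers were all positive, with a median of 0.68 and a summed signal of 1682 and 2989, and the 6 smooth muscle markers had a median of 0.40 and a summed signal of 9798 and 12655. All 16 digestion-induced genes were negative with a median of -0.55, 3 of them past 2-fold (Egr3, Atf3 and Egr2), and a summed signal of 54845 and 40099. Among them Fos, Junb and Egr1 are also in the lists of Stat3 targets or LIF-responsive genes below, so this list is not particular to digestion. The median of the 9 members, -0.54, was close to the macrophage, endothelial and digestion medians, and the part of these cells or of the digestion in the members' ratios was not tested.

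The remaining ligands and receptors of the family showed no common direction. Of the further ligand genes 3 had a probe set of their single symbol. Ctf1, cardiotrophin 1, had 103 and 104, and Ebi3, a subunit of interleukin 27, had 45.6 and 38.8. Clcf1, cardiotrophin-like cytokine factor 1, had 64.9 and 92.0, a log2 ratio of 0.50, with another probe set at -0.10. Of 4 further receptor genes, Il27ra was above the floor in the control array only, at 52.2 and 26.5, and Il31ra, the partner of Osmr in the interleukin 31 receptor, in the null array only, at 30.8 and 42.5. Cntfr was under the floor in both. None of the readable genes here was called past 2-fold. Il27ra and Il31ra were counted by their bounds, at least 1.74-fold lower and at least 1.37-fold higher, which cannot show that they stay under 2-fold.

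Among the kinases and the other Stat genes, Jak2 stood at the low end. Jak2, a kinase that gp130 receptors use, went from 1277 in control to 697 in null cells, a log2 ratio of -0.87, and its second probe set gave -1.01. Jak1, the main kinase of gp130, had 2318 and 2029, a ratio of -0.19, with 2 further probe sets at -0.30 and -0.03. Jak3 had -0.54 and Tyk2 0.43. Of 9 readable genes in this list 5 were positive, among them Stat5a at 0.44 and Stat5b at 0.31. Stat4 and Stat2 were readable in the null array only. Stat4 had 29.9 in control and 52.8 in null cells, at least 1.70-fold higher. Stat2 had 23.8 and 51.4, at least 1.66-fold higher. The list's median was 0.31, or 0.10 with a floor at the 65th percentile. By their brightest probe set 0 of the 9 were called past 2-fold. Stat2 and Stat4 were counted there by their bounds, which cannot show that they stay under 2-fold.

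The other inhibitors of cytokine signalling did not share the lower level of Socs3. Of 15 Socs, Pias and phosphatase genes 8 had positive and 7 negative ratios. With Socs1 counted by its bound, 0 were called past 2-fold, and the median was 0.01. Socs2 had 1014 and 965, and Socs1 was readable in the null array only, at 25.0 and 34.7. Socs7 had a ratio of 0.53 with 0.36 on its second probe set, and Cish, a feedback gene of Stat5, had 0.30. Ptpn2, a phosphatase that acts on Janus kinases, had 0.60, but of its other probe sets 1 gave -0.24. Pias1 had -0.32, and 1 of its 2 other probe sets had the opposite sign. Ptpn11, the phosphatase recruited by gp130, had 0.29.

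Genes that Stat3 is known to induce differed in both directions. Of 15 Stat3 target genes 11 were negative and 4 positive, where 47.7% of all readable genes were negative. Of the 15, 0 were past 2-fold and the median was -0.20. The adhesion molecule gene Icam1 went from 360 in control to 204 in null cells, a ratio of -0.82, and Cebpd, a transcription factor of the acute phase response, had -0.66 with another probe set at 0.15. Junb had -0.46, Bcl3 -0.30 and the kinase gene Pim1 -0.29, while the survival gene Bcl2l1 had 0.63. Fos and Junb are also in the digestion list, so these lists are not separate. Most genes of this list respond to other signals as well.

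The acute phase genes, secreted proteins of which many are induced through gp130 in liver, were split widely. Of 14 genes 9 were readable, with 3 at least 2-fold lower, 2 at least 2-fold higher and a median of -0.63. Among all readable genes 1.80% were at least 2-fold lower and 1.59% at least 2-fold higher. The list's median was the ratio of Saa1, a bound, and was -0.22 with a floor at the 65th percentile. Lrg1, leucine-rich alpha-2-glycoprotein, had 388 and 105, a ratio of -1.88, and Hp, haptoglobin, had 237 and 73.5, a ratio of -1.69. Serpina3n had 94.6 and 0.961, which makes it at least 3.15-fold lower. In the other direction the protease inhibitor gene A2m had 135 and 1328, a ratio of 3.30, and the lipocalin gene Lcn2 had 35.0 and 311, a ratio of 3.15. Cp, ceruloplasmin, had -0.72, with 1 of its 6 other readable probe sets of opposite sign. Saa1 was readable in the control array only, at 46.5, and Saa3 in the null array only, at 34.2. Lbp, the lipopolysaccharide-binding protein gene, had 1312 and 1225.

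Genes known to respond to LIF in the uterus were few and also split. Igfbp3, an insulin-like growth factor binding protein, went from 1128 in control to 354 in null cells, a ratio of -1.67, with -1.37 on its second probe set. Coch, cochlin, was under the floor in the control array at 17.3 and had 79.6 in the null array, at least 2.56-fold higher. Egr1, also in the digestion list, had -0.42, and Hbegf, a growth factor of the implantation site, had -0.18 with another probe set at 0.31. Ereg was under the floor in both arrays. The 10 members and all the lists were chosen with earlier results of these arrays known, so their directions are no independent evidence.

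**Figure D3:**
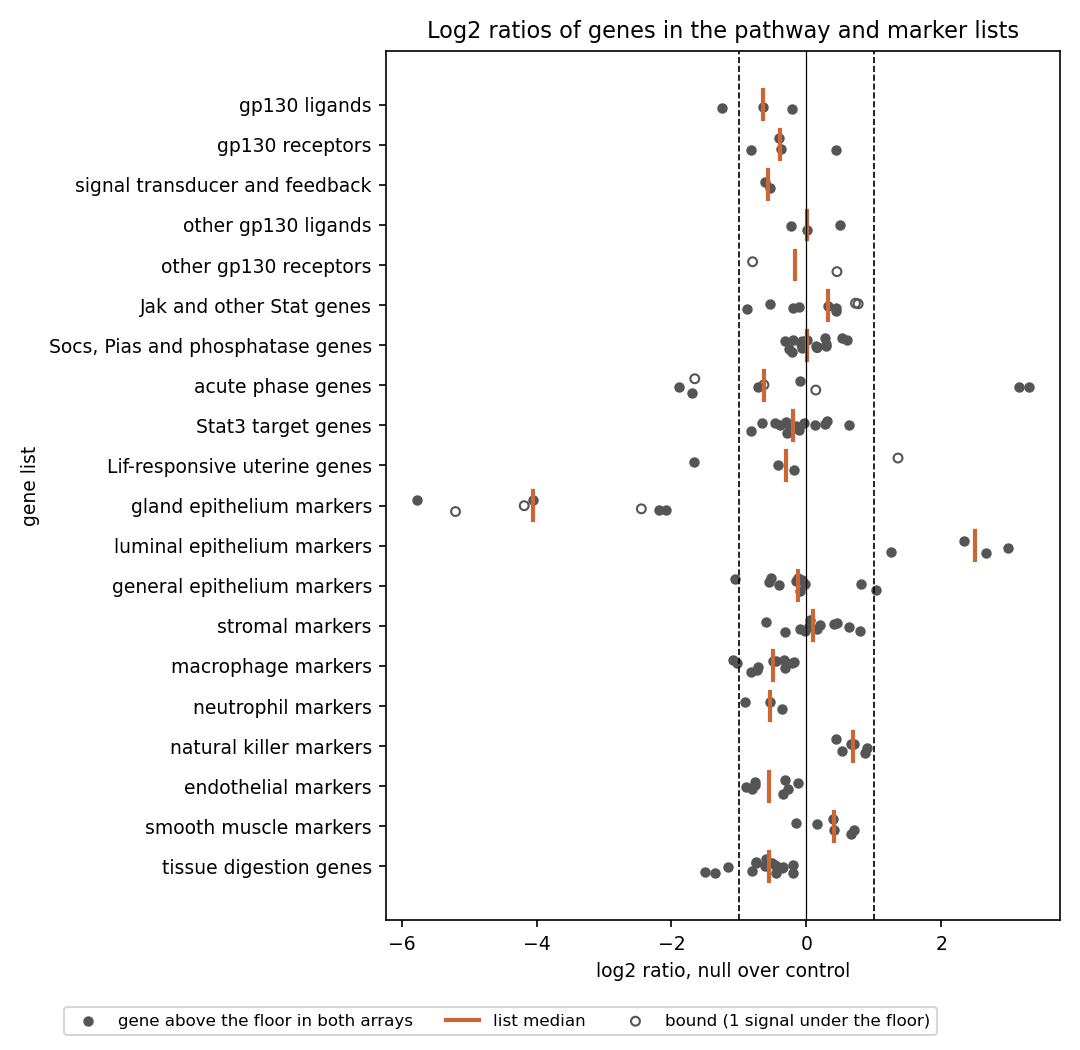
Log2 ratio of null over control of each readable gene in the 20 lists (rows), filled where both signals were above the floor and open where 1 was raised to it, with the list median in orange and dashed lines at 2-fold. The 3 top rows are the members, with medians of -0.64, -0.39 and -0.57, while the other Socs, Pias and phosphatase genes lie around a median of 0.01 and the gland and luminal epithelium markers lie apart at -4.05 and 2.50.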

How the data were processed

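Stromal RNA pooled by genotype was hybridized to 1 array each. The deposited values are linear intensities. Per the submitters' processing notes the authors ran Affymetrix Expression Console 1 and MAS5. Background and scaling settings and detection calls are not given in the sources used here. With 2% of probe sets trimmed at each end, both arrays had a mean of 150.

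Of 45101 probe sets, 64 were control probe sets. The platform annotation gave 1 symbol for 34945, several for 932 and none for 9160, and only the first were used. Entrez IDs of 34741 were in the GRCm38.p6 RefSeq table. Genes of a list with no probe set of their single symbol were not analysed here.

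Signals were log2-transformed, and ratios are null minus control. The brightest probe set, by mean log2 signal over the arrays, stood for a gene. Signals under the 50th percentile of an array were raised to it, and such a fold is a bound ("at least"). A gene was used when readable in at least 1 array (11833 of 18193). Genes were called at 2-fold, with no p-value. MAS5 ratios of dim probe sets are noisy. The script was tested on simulated data with Python 3.11.15 and pandas 2.3.3. The 10 members, the 20 gene lists and the thresholds were chosen with earlier results of these data known. The rule for named genes took all member probe sets and, per list, genes past 2-fold and the largest other ratios (up to 4 in pathway lists, 2 in marker lists). In the marker lists, given mostly as sums, the other ratios are not all named. Beyond this rule Jak1, Tyk2, Stat5a, Stat5b, Socs1, Socs2, Ptpn11, Bcl3, Pim1, Fos, Ereg, Cntfr, S100a8 and Cxcr2 were named after their values were seen.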

Additional observations from a re-analysis of the deposited data

How the results depend on the processing

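The members' results kept their direction under 7 other settings: no floor, a floor at the 65th percentile, the median over probe sets, no _x_at and _s_at probe sets, median centring, quantile normalization, and 16 added to every signal. The log2 ratio of Lif lay between -1.27 and -1.17, that of Lifr between 0.40 and 0.45, and the median of the readable members between -0.64 and -0.47. Il6ra moved from -0.37 to -0.08 and Osm became unreadable with the higher floor. The Il6st ratio ran from -0.66, with the median over probe sets, to -0.40. Without a floor Il11 was read too, which made 9 of 10 members negative. With the 1.5-fold threshold, added after the values were seen, 4 members were lower in place of 1. The counts over all genes depended on the floor, with 1772 lower and 1797 higher without it and 123 and 97 with the higher floor. With 16 added they were 216 and 187 over the same 18193 genes as without a floor, close to the 213 and 188 reported. The acute phase median of -0.63 was the ratio of Saa1, a bound set by the floor. It moved to -0.22 with the higher floor. With 16 added, where genes under the floor were read too, it was -0.11. The part of each of these in the moves was not tested. The gland marker median ran from -5.25 without a floor to -2.75 with the higher one, with -3.18 without _x_at and _s_at probe sets and -3.61 with 16 added. With the higher floor the neutrophil median was -0.18 and that of the Jak and other Stat genes 0.10. The medians of the other gp130 ligands and of the Socs, Pias and phosphatase genes lay near 0 and changed sign, between -0.10 and 0.09 and between -0.02 and 0.10. No paired analysis was possible because each genotype has 1 array.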
